A study of Mus musculus with 3 samples.

Results

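The classical androgen targets are genes that androgen raises in the prostate, the testis or prostate cancer cells, and 9 of them were followed here through loss and return of testosterone in the mouse epididymis, the duct in which sperm mature. They were Rhox5, Fkbp5, Tmprss2, Zbtb16, Ndrg1, Steap4, Pmepa1, Abcc4 and Tsc22d3, and all 9 were present among the 23538 genes listed. The choice was by symbol, as known androgen targets, and was made with earlier results of these data known. Adult male ICR mice, an outbred stock, were used. In the Cas+T group, 5 mice were castrated with the epididymides left in place and, from 14 days later, given testosterone propionate under the skin at 5 mg/kg in corn oil on 10 days in a row. The Cas+CO group consisted of 5 mice castrated in the same way and given corn oil alone. The Sham group consisted of 3 mice that had the surgery but kept their testes, and no injection is recorded for them, so castration and oil injection cannot be told apart in Cas+CO against Sham. Each group gave 1 epididymis library, and whether it pools all mice of the group is not given in the sources used here. No value therefore has a replicate error, no test across animals was possible, and every difference below is between 2 libraries.

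Androgens act through a nuclear receptor that is held ready by a chaperone complex, binds hormone and then attaches to response elements in DNA. The glucocorticoid receptor recognises nearly the same DNA element, so several classical androgen targets, among them Fkbp5, Tsc22d3 and Zbtb16, are also known as glucocorticoid targets. In the epididymis the secretory principal cells depend on androgen, and the duct regresses after castration.

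Levels are in TPM, a transcript abundance that corrects for gene length and fixes each library to the same total. The sequencing depth is unknown. A gene was compared between a pair of libraries if it reached 1 TPM in at least 1 of them, and was called higher or lower if its log2 ratio of TPM + 1 was at least 2-fold. The fixed total matters here: the median gene compared had a log2 ratio of 0.76 in Cas+CO against Sham, of −0.46 in Cas+T against Cas+CO and of 0.30 in Cas+T against Sham. Median scaling, which brings the median of 12670 genes expressed in all 3 libraries to the Sham value, lowers every Cas+T value by 0.35 and every Cas+CO value by 0.80 on the log2 scale. Where it changed a call or a direction of the 9 genes, its value is given beside the deposited one. The tissue label fitted its markers: Crisp1, a secreted sperm-binding protein, stood at 32799 TPM in Cas+T, 6654 TPM in Cas+CO and 44116 TPM in Sham, and Gpx5, a secreted glutathione peroxidase, at 15470, 335 and 17098 TPM in the same order.

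The 9 genes did not move together. In Cas+CO against Sham, 5 were higher (Steap4, Tmprss2, Ndrg1, Tsc22d3 and Zbtb16), 2 were lower (Rhox5 and Fkbp5) and 2 lay within 2-fold (Pmepa1 and Abcc4). Across all 16170 genes compared, 37.5% were higher and 6.49% were lower, 44.0% in all. Set against Cas+CO, Cas+T had 2 of them higher (Rhox5 and Fkbp5), 5 lower (Steap4, Ndrg1, Tmprss2, Tsc22d3 and Zbtb16) and 2 within 2-fold. Among the 16152 genes compared there, 6.90% were higher and 23.4% lower, 30.3% in all. Set against Sham, Cas+T had 1 lower (Abcc4) and 8 within 2-fold. Among the 14620 genes compared there, 5.18% were higher and 2.76% lower, 7.93% in all. The first 2 comparisons share the Cas+CO library, so a value that is high or low in that library alone enters both with opposite signs.

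After median scaling, 4 of the 9 were higher and 3 lower in Cas+CO against Sham (13.0% and 11.7% of all genes, 24.7% in all): Zbtb16 was short of the limit and Abcc4 passed it as lower. Between Cas+T and Cas+CO, 2 were higher and 3 lower in Cas+T (9.40% and 11.9% of all genes, 21.3% in all), with Tsc22d3 and Zbtb16 short of the limit. Between Cas+T and Sham, 1 was lower in Cas+T and none was higher (3.99% and 2.11% of all genes, 6.11% in all).

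**Figure D1:**
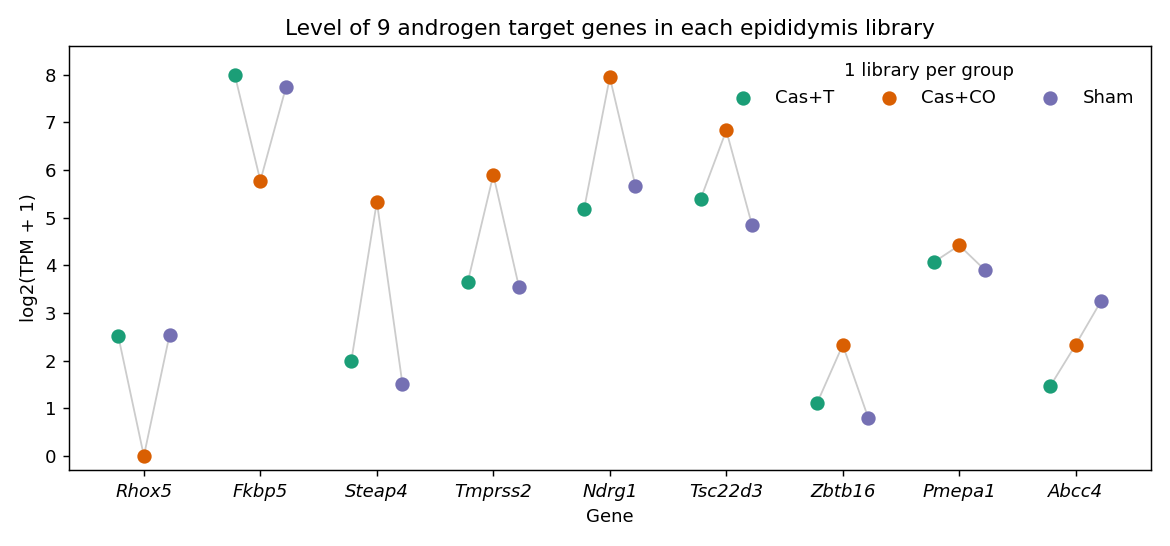
Level of each of the 9 androgen target genes, as log2(TPM + 1), in the Cas+T, Cas+CO and Sham libraries (1 point per library; grey lines join the points of a gene). Rhox5 and Fkbp5 dip in Cas+CO, Steap4, Tmprss2, Ndrg1, Tsc22d3 and Zbtb16 peak there, Pmepa1 differs little, and Abcc4 is highest in Sham.

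Rhox5 (ENSMUSG00000095180; GRCm38 chromosome X, 37804842 to 37808876, plus strand) encodes a homeobox transcription factor of the reproductive homeobox cluster, known to depend on androgen in Sertoli cells and in the epididymis itself. It stood at 4.72 TPM in Cas+T, had a listed value of 0 in Cas+CO and stood at 4.79 TPM in Sham. Cas+T and Sham were thus alike, at a log2 ratio of −0.02, while the 0 in Cas+CO may be an absence of reads or a failed estimate. No fold is given against 0. The size of a log2 ratio against 0 is set by the pseudocount: in Cas+CO against Sham that of Rhox5 was −2.53 with a pseudocount of 1 and −5.61 with 0.1. Rhox8, another gene of the cluster, was at 0.22 TPM in Cas+T, 0 in Cas+CO and 0.09 TPM in Sham, too low to compare.

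Fkbp5 (ENSMUSG00000024222; chromosome 17, 28399094 to 28517527, minus strand) encodes a co-chaperone that binds the heat shock protein of the steroid receptor complex and dampens glucocorticoid receptor activity. It stood at 254.5 TPM in Cas+T, 53.7 TPM in Cas+CO and 212 TPM in Sham. It was the most abundant of the 9 genes in Cas+T and Sham, whereas Ndrg1, Tsc22d3 and Tmprss2 stood above it in Cas+CO. The TPM in Cas+CO was 3.95-fold lower than in Sham, and that in Cas+T was 4.74-fold higher than in Cas+CO. The log2 ratio was −1.96 in Cas+CO against Sham, with 2.63% of all genes lower still, and 2.22 in Cas+T against Cas+CO, with 2.02% of all genes higher. After median scaling these ratios were −2.74 and 2.65. Against Sham, Cas+T differed by 0.26 on the log2 scale as deposited and by −0.08 after median scaling, so the order of these 2 libraries is not settled.

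Other parts of the receptor complex differed from Fkbp5. Fkbp4, the related co-chaperone that favours receptor activity, stood at 369 TPM in Cas+T, 386 TPM in Cas+CO and 293 TPM in Sham. The ratio of Fkbp5 to Fkbp4 within a library, which no scaling can alter, was therefore 0.689 in Cas+T, 0.139 in Cas+CO and 0.724 in Sham. Nr3c1, the glucocorticoid receptor, stood at 11.8 TPM in Cas+T, 32.8 TPM in Cas+CO and 8.47 TPM in Sham. It was thus highest in Cas+CO, also after median scaling (a log2 ratio of 1.07 in Cas+CO against Sham). Of 17 receptor and chaperone genes, 7 were higher and 0 lower in Cas+CO against Sham, with a median log2 ratio of 0.75 beside 0.76 for all genes. Cas+T over Cas+CO gave 0 higher and 7 lower, with a median of −0.63 beside −0.46. Median scaling turned the 2 pairs of counts to 4 higher and 1 lower, and to 1 higher and 3 lower.

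The promoter of Fkbp5 is shown with those of other members for comparison of genes that differed in opposite directions. Sequences are from RefSeq (GRCm38.p6), which held 9 start sites for 6 of the 9 genes. Zbtb16, Ndrg1 and Pmepa1 were not in the table. Each sequence is the 250 bases before the listed start, 5′ to 3′ on the gene's strand, in lower case. Capitals in Tmprss2 and Steap4 mark the closest match to the androgen and glucocorticoid response element, which is 15 bases long (the half-site AGAACA, 3 free bases and the half-site TGTTCT), and in Abcc4 a half-site TGTTCT.
Fkbp5, chr17:28486150-28486399, minus strand: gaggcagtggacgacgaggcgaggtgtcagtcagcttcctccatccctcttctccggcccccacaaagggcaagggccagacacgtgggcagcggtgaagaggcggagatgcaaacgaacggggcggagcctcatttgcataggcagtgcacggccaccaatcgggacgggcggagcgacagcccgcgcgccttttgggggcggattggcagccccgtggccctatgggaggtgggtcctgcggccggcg
Tmprss2, chr16:97611196-97611445, minus strand: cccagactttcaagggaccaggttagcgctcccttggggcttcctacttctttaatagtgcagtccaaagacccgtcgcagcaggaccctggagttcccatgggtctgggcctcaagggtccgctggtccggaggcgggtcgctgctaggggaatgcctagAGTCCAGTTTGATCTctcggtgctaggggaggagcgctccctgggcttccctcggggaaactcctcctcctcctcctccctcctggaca
Steap4, chr5:7960222-7960471, plus strand: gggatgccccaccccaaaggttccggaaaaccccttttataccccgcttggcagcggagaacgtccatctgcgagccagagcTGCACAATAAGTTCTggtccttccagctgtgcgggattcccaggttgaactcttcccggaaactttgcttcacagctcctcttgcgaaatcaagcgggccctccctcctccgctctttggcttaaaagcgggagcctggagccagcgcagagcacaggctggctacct
Abcc4, chr14:118676932-118677181, minus strand: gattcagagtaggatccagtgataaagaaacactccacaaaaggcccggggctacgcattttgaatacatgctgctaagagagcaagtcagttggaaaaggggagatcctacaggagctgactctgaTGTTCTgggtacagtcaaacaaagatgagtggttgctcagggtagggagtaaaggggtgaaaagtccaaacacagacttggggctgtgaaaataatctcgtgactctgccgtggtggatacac

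The element was searched in the 300 bases from 250 before to 50 after each start. Its best match differed at 3 of the 12 fixed letters in Tmprss2 and Steap4, at 5, 5 and 4 in the windows of Tsc22d3, at 4 in Rhox5, at 6 and 4 in those of Abcc4 and at 6 in Fkbp5. Of the 2 genes lower in Cas+CO, Rhox5 at 4 lay within the range of the higher genes and Fkbp5 at 6 lay outside it. The Rhox5 window is far from its gene, as stated below. So few windows cannot show whether the genes higher and lower in Cas+CO differ in this measure. A match with at most 3 mismatches was present in 2 of the 9 windows, and in 14.5% of all 32851 windows of this length. The half-site AGAACA or TGTTCT (the same letters on the other strand) was present in 3 of the 9 windows, 1 each of Rhox5, Abcc4 and Tsc22d3, and in 19.0% of all windows. These are matches of letters, not binding sites, and hormone receptors often bind far from a start. The Fkbp5 window belongs to an internal start, 31378 bases from the outer end of the gene in GENCODE. The printed Abcc4 window is internal as well, 29288 bases from that end, and the Abcc4 window at the gene start itself held no half-site. The RefSeq start of Rhox5 lies 50234 bases upstream of the GENCODE gene start, so its window is not printed. The printed Steap4 window overlaps exons by 98 bases, most of them those of the lincRNA gene Gm30835 on the other strand.

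Tsc22d3 (ENSMUSG00000031431; chromosome X, 140539528 to 140600659, minus strand) encodes the glucocorticoid-induced leucine zipper, which restrains inflammatory signalling. It stood at 41.0 TPM in Cas+T, 112.5 TPM in Cas+CO and 27.9 TPM in Sham, with Cas+CO the highest. The TPM in Cas+CO was 4.03-fold higher than in Sham, and that in Cas+T 2.75-fold lower than in Cas+CO. The log2 ratios were 1.97 in Cas+CO against Sham, which 7.93% of all genes exceeded, and −1.44 in Cas+T against Cas+CO. After median scaling they were 1.19 and −0.99. Fkbp5 and Tsc22d3, targets shared by both receptors, thus differed in opposite directions: the ratio of Fkbp5 to Tsc22d3 within a library was 6.21 in Cas+T, 0.477 in Cas+CO and 7.59 in Sham.

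Zbtb16 (ENSMUSG00000066687; chromosome 9, 48654297 to 48836222, minus strand), a zinc finger repressor needed for renewal of spermatogonial stem cells, was the least abundant of the 9 genes in Cas+T and Sham. It stood at 1.16 TPM in Cas+T, 4.02 TPM in Cas+CO and 0.73 TPM in Sham. The TPM in Cas+CO was 5.51-fold higher than in Sham, but the log2 ratio of TPM + 1 was 1.54, and 16.2% of all genes exceeded it. For Cas+T against Cas+CO it was −1.22. After median scaling neither ratio reached 2-fold (0.94 and −0.79). At levels this low the pseudocount matters, and with 0.1 the deposited ratios of Zbtb16 were 2.31 and −1.71.

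Of 24 other genes raised by glucocorticoids in many tissues, 11 were higher and 2 lower in Cas+CO against Sham (median log2 ratio 0.91, beside 0.76 for all genes), and 5 were higher and 6 lower after median scaling. Cas+T over Cas+CO gave 3 higher and 7 lower (median −0.61, beside −0.46), and 5 and 5 after median scaling. Sgk1, a kinase that controls ion transport, ran the same way as Fkbp5, at 154 TPM in Cas+T, 36.3 TPM in Cas+CO and 97.0 TPM in Sham. Pdk4, a brake on glucose oxidation in mitochondria, ran the same way as Tsc22d3, at 0.85 TPM in Cas+T, 9.04 TPM in Cas+CO and 0.66 TPM in Sham, as did Bcl6, a transcriptional repressor, at 2.20, 11.8 and 1.16 TPM. Members of this list thus stood on both sides, as Fkbp5 and Tsc22d3 did. Between Cas+T and Sham, 0 of 21 passed the limit in either direction.

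**Figure D2:**
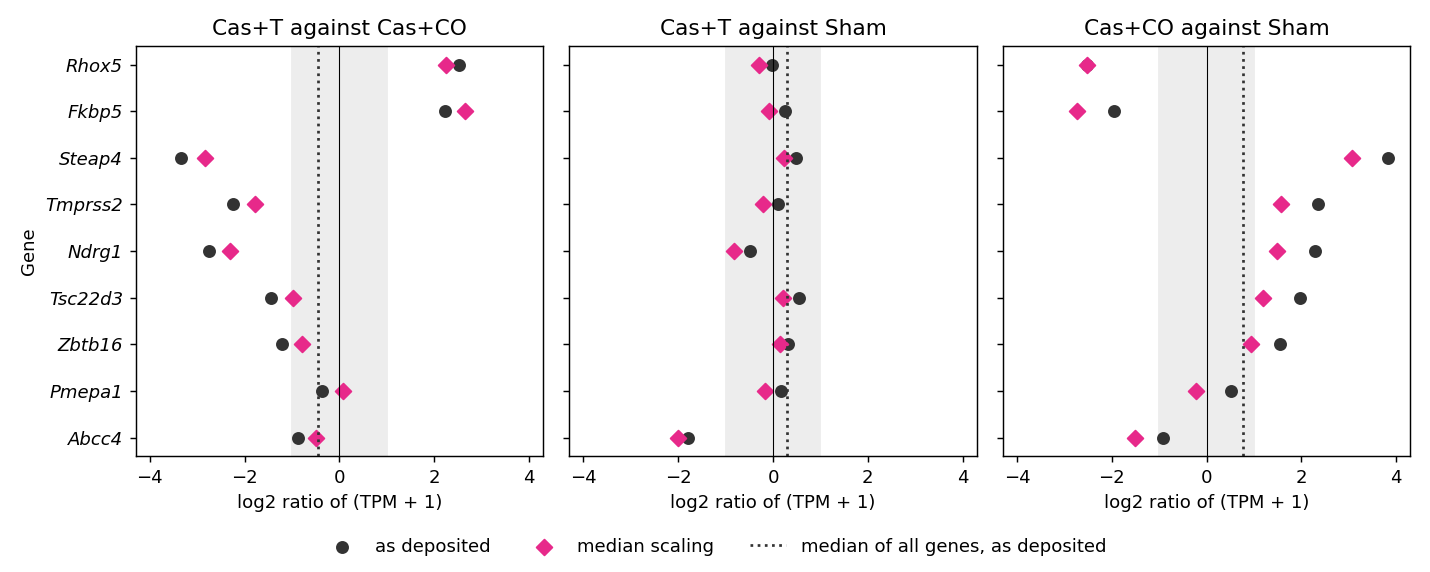
Log2 ratios of TPM + 1 for the 9 genes in Cas+T against Cas+CO, Cas+T against Sham and Cas+CO against Sham, as deposited (circles) and after median scaling (diamonds). The grey band is the range within 2-fold and the dotted line the median of all genes as deposited. Abcc4, at −1.80, is the gene outside the band in Cas+T against Sham.

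Tmprss2 (ENSMUSG00000000385; chromosome 16, 97564682 to 97611195, minus strand) encodes a membrane serine protease whose androgen-driven promoter is fused to oncogenes in many human prostate cancers. It stood at 11.5 TPM in Cas+T, 58.6 TPM in Cas+CO and 10.7 TPM in Sham. The Cas+CO library thus held 5.48-fold more than Sham, and Cas+T held 5.10-fold less than Cas+CO. The log2 ratios were 2.35 and −2.25, and 1.57 and −1.79 after median scaling. The Tmprss2 ratio in Cas+CO against Sham was exceeded by 4.38% of all genes. Cas+T and Sham were close, at 0.10 as deposited and −0.22 after median scaling. A relative, Tmprss13, another membrane serine protease, stood at 1.29 TPM in Cas+T, 9.08 TPM in Cas+CO and 1.02 TPM in Sham.

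Ndrg1 (ENSMUSG00000005125; chromosome 15, 66929318 to 66969640, minus strand) encodes a cytoplasmic protein of differentiation that hypoxia and cell stress also raise. It stood at 35.5 TPM in Cas+T, 245 TPM in Cas+CO and 49.8 TPM in Sham, and was the most abundant of the 9 genes in Cas+CO. Cas+CO held 4.93-fold more than Sham, and Cas+T 6.92-fold less than Cas+CO. The log2 ratios were 2.28, which 4.97% of all genes exceeded, and −2.76, below which lay 1.76% of all genes. After median scaling they were 1.49 and −2.30. Cas+T against Sham gave −0.48, within 2-fold. The antisense gene Gm17035 shares 419 of the 6596 exonic bases of Ndrg1, and Gm2895, on the opposite strand as well, shares 137 of them. Gm2895 was at 0.56 TPM in Cas+T, 0 in Cas+CO and 0.13 TPM in Sham, and Gm17035 is not analysed here. Whether reads were counted by strand is not given in the sources used here.

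Ndrg1 is also a hypoxia gene, and other hypoxia-responsive genes were set beside it. Of 16 compared, 4 were higher and 1 lower in Cas+CO against Sham (median log2 ratio 0.37, beside 0.76 for all genes), and 0 were higher and 4 lower after median scaling. Cas+T relative to Cas+CO had 1 higher and 4 lower (median −0.43, beside −0.46), and 4 higher and 1 lower after median scaling. Hk2, a hexokinase, was the 1 gene lower and then higher, at 40.7 TPM in Cas+T, 8.0 TPM in Cas+CO and 34.4 TPM in Sham, the reverse of Ndrg1. Mxi1, an antagonist of Myc, was at 15.7 TPM in Cas+T, 45.2 TPM in Cas+CO and 13.2 TPM in Sham. A relative of Ndrg1 also differed from it: Ndrg2 stood at 117 TPM in Cas+T, 60.7 TPM in Cas+CO and 53.5 TPM in Sham.

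Steap4 (ENSMUSG00000012428; chromosome 5, 7960457 to 7982213, plus strand) encodes a metalloreductase, which reduces iron and copper for uptake and is prominent in fat tissue and inflammation. It stood at 2.96 TPM in Cas+T, 39.3 TPM in Cas+CO and 1.84 TPM in Sham. This was the widest difference among the 8 genes with values above 0 in all libraries: Cas+CO held 21.4-fold more than Sham, and Cas+T 13.3-fold less than Cas+CO. The log2 ratio of 3.83 in Cas+CO against Sham was exceeded by 0.581% of all genes, and it was 3.06 after median scaling. The ratio of Cas+T against Cas+CO was −3.35, with 0.762% of all genes lower, and −2.83 after median scaling. Its relatives Steap1 and Steap2 were likewise highest in Cas+CO. Steap1 stood at 2.30 TPM in Cas+T, 6.96 TPM in Cas+CO and 0.64 TPM in Sham, and Steap2 at 6.13, 13.1 and 2.04 TPM.

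Of 15 genes of iron and copper handling, 3 were higher and 1 lower in Cas+CO against Sham (median log2 ratio 0.74, beside 0.76 for all genes), and 1 was higher and 3 were lower in Cas+T against Cas+CO (median −0.49). After median scaling these counts were 3 higher and 4 lower, and then 3 and 3. Trf, the plasma iron carrier transferrin, stood at 19.6 TPM in Cas+T, 225 TPM in Cas+CO and 22.3 TPM in Sham. Cybrd1, another iron reductase, stood at 0.41, 7.13 and 0.75 TPM in the same order. Tfrc, the transferrin receptor, was the 1 lower gene in Cas+CO, at 51.9 TPM in Cas+T, 11.8 TPM in Cas+CO and 31.6 TPM in Sham.

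Pmepa1 (ENSMUSG00000038400; chromosome 2, 173224458 to 173276533, minus strand) encodes a membrane adaptor that restrains TGF-beta signalling and is strongly raised by androgen in prostate cells. It stood at 15.7 TPM in Cas+T, 20.4 TPM in Cas+CO and 13.9 TPM in Sham. The 3 libraries thus lay within 2-fold of each other. Its log2 ratio of 0.52 in Cas+CO against Sham lay below the median of all genes and turned to −0.23 after median scaling, so no direction is given. Of 19 genes known to respond to TGF-beta, 11 were higher and 0 lower in Cas+CO against Sham (median 1.26, beside 0.76 for all genes; 5 higher after median scaling). Relative to Cas+CO, Cas+T had 0 higher and 7 lower (median −0.92, beside −0.46; 4 lower after median scaling). Ctgf, a matrix-associated growth factor, stood at 1.46 TPM in Cas+T, 26.5 TPM in Cas+CO and 3.18 TPM in Sham.

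Abcc4 (ENSMUSG00000032849; chromosome 14, 118482692 to 118706219, minus strand) encodes a pump that exports cyclic nucleotides and prostaglandins. It stood at 1.75 TPM in Cas+T, 4.04 TPM in Cas+CO and 8.57 TPM in Sham. Both castrated libraries were below Sham, and the one given testosterone was the lowest. The TPM in Cas+T was 4.90-fold lower than in Sham, a log2 ratio of −1.80, and 0.896% of all genes had a lower ratio. In Cas+CO against Sham the TPM was 2.12-fold lower, and the log2 ratio of TPM + 1 was −0.93 as deposited and −1.52 after median scaling. Against Cas+CO, the ratio of Cas+T was −0.87 as deposited and −0.49 after median scaling. With a pseudocount of 0.1 these 2 deposited ratios of Abcc4 were −1.07 and −1.16, past 2-fold. A related pump differed from it: Abcc5 stood at 30.8 TPM in Cas+T, 50.8 TPM in Cas+CO and 9.27 TPM in Sham.

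**Figure D3:**
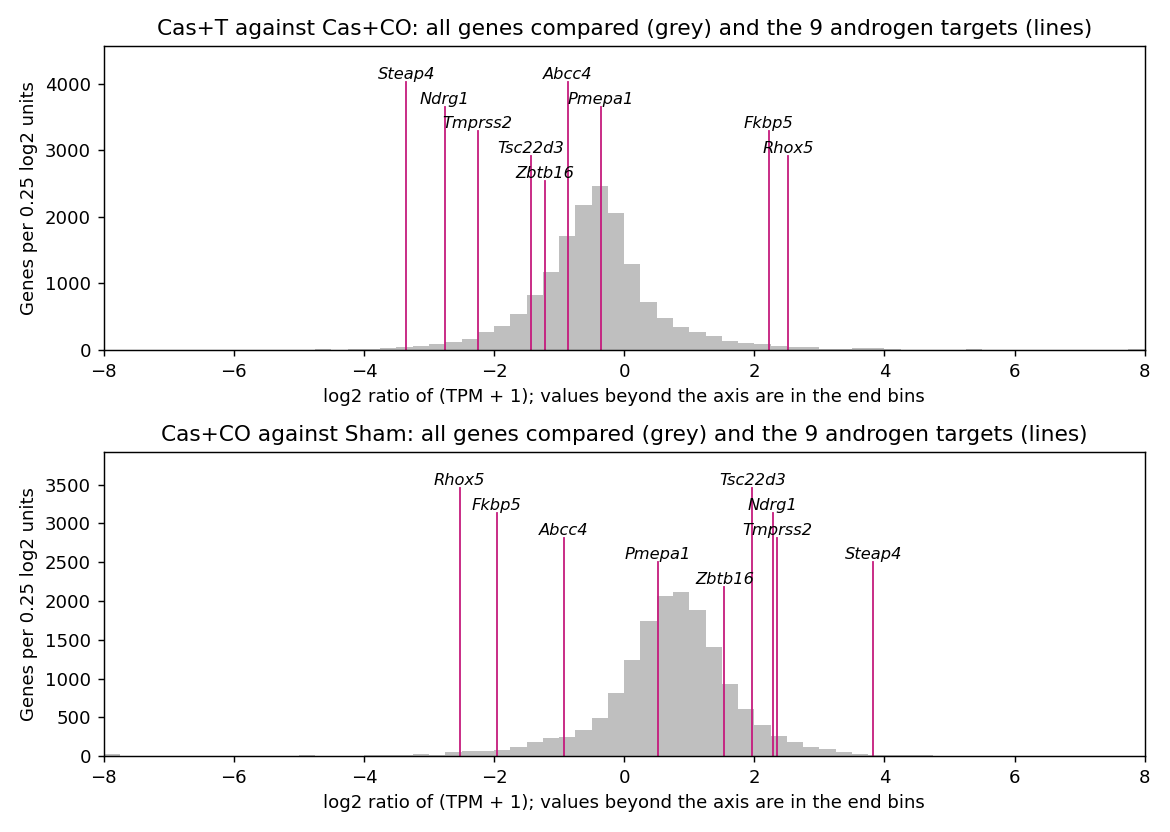
Log2 ratios of TPM + 1 of all genes compared (grey bars, genes per bin of 0.25) and of the 9 androgen targets (lines) in Cas+T against Cas+CO (above) and Cas+CO against Sham (below). Steap4 and Rhox5 stand near opposite ends of each distribution, where the pseudocount of 1 sets the place of Rhox5, and Pmepa1 stands near its centre.

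A further 70 genes known to respond to androgen in prostate or kidney gave a wider view. In Cas+CO against Sham, 28 of 67 compared were higher and 6 lower, with a median log2 ratio of 0.70 beside 0.76 for all genes, and the counts after median scaling were 11 and 12. Against Cas+CO, Cas+T had 7 of 66 higher and 17 lower, with a median of −0.40 beside −0.46, and 11 and 12 after median scaling. Against Sham, Cas+T had 1 of 63 higher and 2 lower. Kap, the kidney androgen-regulated protein, stood at 2.57 TPM in Cas+T, 89.8 TPM in Cas+CO and 3.93 TPM in Sham. Aldh1a3, which makes retinoic acid, stood at 0.73, 17.8 and 0.60 TPM, and Akap12, a scaffold of protein kinase A, at 5.21, 44.8 and 5.60 TPM in the same order. All 3 were highest in Cas+CO. Azgp1, a secreted zinc-binding glycoprotein, was at 0.92 TPM in Cas+T, 0.88 TPM in Cas+CO and 71.1 TPM in Sham, low in both castrated libraries.

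Family relatives of the 9 genes had medians close to those of all genes. Of 30 compared, 13 were higher and 1 lower in Cas+CO against Sham (median 0.77, beside 0.76 for all genes; 7 higher and 3 lower after median scaling). Cas+T relative to Cas+CO had 1 of 29 higher and 10 lower (median −0.39, beside −0.46; 6 higher and 3 lower after median scaling).

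**Figure D4:**
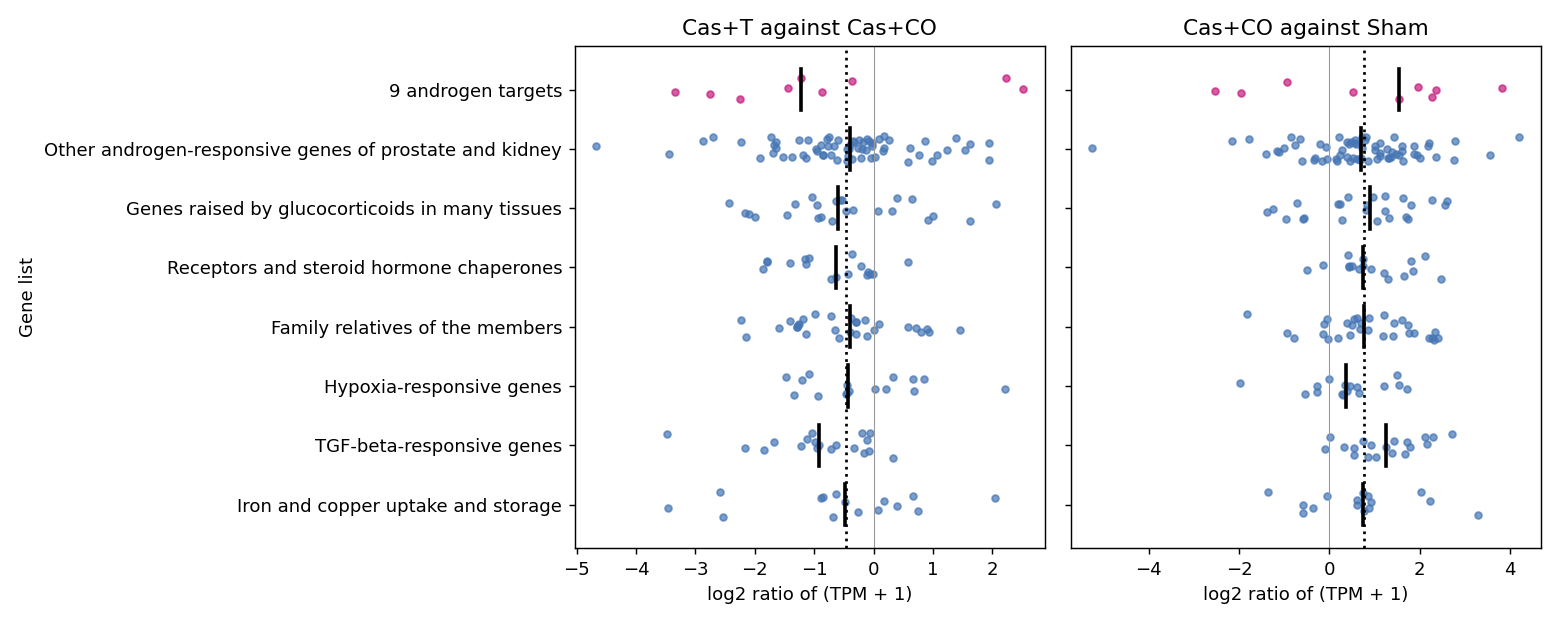
Log2 ratios of TPM + 1 of each gene compared in the 9 androgen targets and in 7 other lists, in Cas+T against Cas+CO (left) and Cas+CO against Sham (right). Black bars are list medians and the dotted line the median of all genes; the 9 targets spread to both sides of it, and the median of the TGF-beta list lies to the right of it in Cas+CO against Sham.

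The cell types in the tissue also differed between libraries. In bulk tissue, fewer cells of a type and less RNA per cell cannot be told apart. Summed over 11 adipocyte markers, which were above 0 in every library, the level was 135 TPM in Cas+T, 2415 TPM in Cas+CO and 49.6 TPM in Sham, and all 11 were higher in Cas+CO against Sham. Steap4 is known from fat tissue, and the part of fat cells in its difference was not tested. Red blood cell markers, 5 in number, summed to 45.2 TPM in Cas+T, where Hba-a2 was at 0, to 2731 TPM in Cas+CO and to 82.9 TPM in Sham. All 8 macrophage markers were higher in Cas+CO against Sham, with sums of 129 TPM in Cas+T, 689 TPM in Cas+CO and 79.5 TPM in Sham. Sums for 7 fibroblast markers were 111, 1317 and 107 TPM in the same order, with 6 of 7 higher in Cas+CO, and for 7 endothelial markers 15.8, 72.7 and 11.5 TPM, with 7 of 7 higher. T cell markers, 3 of 4 compared being higher, summed to 5.34 TPM in Cas+T, where Cd3d was at 0, 31.6 TPM in Cas+CO and 3.01 TPM in Sham, where Cd3d and Cd3g were at 0. The 7 markers of B and plasma cells, each higher in Cas+CO than in Sham, summed to 6.24, 366 and 1.86 TPM in the same order, with Cd79b at 0 in Sham. These counts are as deposited, where 37.5% of all genes were higher in Cas+CO against Sham. After median scaling (13.0% of all genes), 11 of 11 adipocyte, 4 of 5 red blood cell and 4 of 8 macrophage markers were higher. So were 6 of 7 fibroblast, 5 of 7 endothelial, 2 of 4 T cell and 6 of 7 B and plasma cell markers. These cell types peaked in Cas+CO as Steap4, Tmprss2, Ndrg1, Tsc22d3 and Zbtb16 did, and their part in the higher levels of these 5 genes was not tested.

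General epithelial markers differed less. Of 8, as deposited 0 were higher and 0 lower in any of the 3 comparisons (1 higher in Cas+T against Cas+CO after median scaling), and they summed to 2067 TPM in Cas+T, 2033 TPM in Cas+CO and 1592 TPM in Sham, with none at 0. When each library was scaled to this sum, a choice made after the data were seen, 5 of the 9 targets were higher and 3 lower in Cas+CO against Sham (23.9% and 8.01% of all genes, 31.9% in all), and 2 were higher and 5 lower in Cas+T against Cas+CO (6.18% and 21.9% of all genes, 28.1% in all). Between Cas+T and Sham, 0 were higher and 1 lower in Cas+T (2.01% and 4.11% of all genes, 6.12% in all). Principal cell markers, by contrast, were lower as deposited for 8 of 8 in Cas+CO against Sham, beside 6.49% of all genes. Fkbp5 and Rhox5 were lower there too. The 8 markers summed to 68467 TPM in Cas+T, 8456 TPM in Cas+CO, where Spink13 was at 0, and 93154 TPM in Sham. In Cas+T against Cas+CO, 7 of 8 were higher and 1 was lower, beside 6.90% and 23.4% of all genes. The lower one, Cst11, stood at 296 TPM in Cas+T, 1214 TPM in Cas+CO and 2704 TPM in Sham. The part of principal cells in the Fkbp5 and Rhox5 differences was not tested. Smooth muscle markers summed to 277 TPM in Cas+T, 539 TPM in Cas+CO and 912 TPM in Sham, with none at 0. Much of the Sham sum was 1 gene, Actg2, at 47.7, 32.7 and 465 TPM in the same order. In Cas+CO against Sham, Actg2 was lower and the other 6 of 7 markers lay within 2-fold. Sperm markers summed to 0.39 TPM in Cas+T, 7.56 TPM in Cas+CO and 73.3 TPM in Sham, with 6 of 8 at 0 in Cas+T and 7 of 8 at 0 in Cas+CO. The whole Cas+CO sum was 1 gene, Spata18, which stood at 1.37 TPM in Sham and so ran opposite to the other 7. Prostate and seminal vesicle markers were low in all libraries, at sums of 26.9 TPM in Cas+T, 3.04 TPM in Cas+CO and 15 TPM in Sham over 7 genes. Svs2, Svs4, Svs5 and Pate4 were at 0 in Cas+CO, Spink1 and Svs4 at 0 in Cas+T, and Spink1 at 0 in Sham. Spink1 was highest in Cas+CO, at 2.58 TPM, which gave most of the sum there. The part of such tissue in the Tmprss2 level was not tested.

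**Figure D5:**
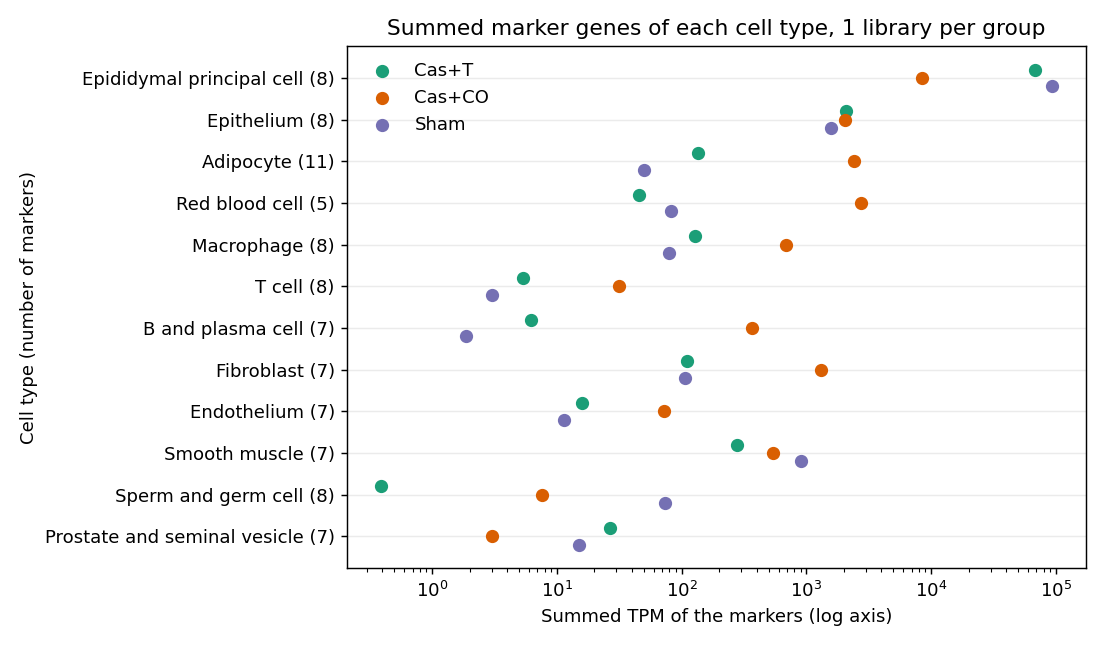
Summed TPM of the markers of each cell type (log axis) in Cas+T, Cas+CO and Sham. Fat, blood, immune, fibroblast and endothelial markers are highest in Cas+CO, and principal cell markers are lowest in Cas+CO. The smooth muscle sum is highest in Sham, where Actg2 gives 465 of its 912 TPM. General epithelial markers lie between 1592 and 2067 TPM.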

How the data were processed

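RNA of 3 epididymis libraries was sequenced after column extraction and standard Illumina preparation, per the labels' protocols. For aligner, counting tool, build, strandedness and depth, no statement is given in the sources used here. Values were deposited by the authors on a log2 scale without a named unit. Raising 2 to each and subtracting 1 gave steps of 0.01 (within 0.001, for 100% of results under 1000) and a sum of 1000000 per library, so they were read as log2(TPM + 1). TPM keeps no depth, so no counting interval is given. Of 23538 rows, 937 had no symbol in the files and 934 of these were named by Ensembl identifier. Rows of 37 shared symbols were summed, leaving 23501 genes. Coordinates are GENCODE M21 (GRCm38) for the same identifiers.

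Ratios used a pseudocount of 1, a minimum of 1 TPM in either library and a 2-fold limit. With 1 library per group no test exists. The 9 members and all lists were chosen with earlier results of these data known. All members are named. From other lists the genes named are mainly some of the 4 with the widest ratios per comparison at 5 TPM or more. Not all of these 4 are named, and no rule chose among them. The glucocorticoid receptor and some main markers are named as well. Values of a few single genes are not reported here. Fkbp4, Rhox8, Ndrg2, Steap2, Cst11, Spata18 and the genes listed at 0 were named after their values were seen. Alternatives were other pseudocounts, scalings, minimums and limits. Scripts were tested on simulated data. Computation used Python 3.11.15, NumPy 2.4.6 and pandas 2.3.3.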

Additional observations from a re-analysis of the deposited data

How the results depend on the processing

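Of 206 ratios of single members under alternatives that keep the 2-fold limit, 188 kept their direction and their side of it, 5 newly passed it (all Abcc4), 3 no longer passed it (Tsc22d3 and Zbtb16 under median scaling) and 10 changed sign. Limits of 1.5-fold or 4-fold leave the ratios as they are and changed 8 of 54 calls. All 10 that changed sign were within 2-fold. For Pmepa1 median scaling gave −0.23 in Cas+CO against Sham, 0.07 in Cas+T against Cas+CO and −0.16 in Cas+T against Sham, where the total without the 50 most abundant genes gave −0.02 and epithelial scaling −0.19. In Cas+T against Sham, Tmprss2 gave −0.22, −0.08 and −0.25 under these 3 scalings, and Fkbp5 gave −0.08 under median and −0.11 under epithelial scaling.

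Counts of the 9 targets moved by over 1.5 times as follows. With a 4-fold limit, 3 were higher and 1 lower in Cas+CO against Sham, beside 1228 and 413 of all 16170 genes. At that limit 3 were lower in Cas+T against Cas+CO, beside 857 of all 16152 genes. In Cas+T against Sham 0 were lower, beside 107 of all 14620 genes. A minimum of 10 TPM leaves out Rhox5, Zbtb16, Abcc4 and, in Cas+T against Sham, Steap4. With it, 1 was lower in Cas+CO against Sham, beside 549 of all genes that met it. In Cas+T against Cas+CO 1 was higher, beside 628 of all genes. In Cas+T against Sham 0 were lower, beside 140 of all genes. No share of all genes was worked out for that minimum, so only counts are given. With median scaling 3 were lower in Cas+T against Cas+CO, beside 11.9% of all genes.

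Over all genes, median scaling gave 2102 higher and 1897 lower in Cas+CO against Sham (as deposited, 6069 and 1049), 1927 lower in Cas+T against Cas+CO (3785) and 309 higher in Cas+T against Sham (757). A minimum of 10 TPM gave 3548 higher and 549 lower, 628 and 1821 (1115 and 3785 as deposited), and 326 and 140 (757 and 403). A limit of 1.5-fold gave 9547 higher, then 1760 and 6914, then 3100 and 795. A limit of 4-fold gave 1228 and 413, 404 and 857, and 68 and 107. In Cas+T against Sham, a pseudocount of 0.1 gave 1409 higher and 631 lower. The total without the 50 most abundant genes gave 4010 higher in Cas+CO against Sham and 452 in Cas+T against Sham, and epithelial scaling 3863 and 294.

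In the 7 other lists together, the deposited counts were 76 higher and 11 lower in Cas+CO against Sham, 13 and 55 in Cas+T against Cas+CO, and 6 and 4 in Cas+T against Sham. Median scaling gave 35 and 30, then 30 and 31, then 1 higher. A limit of 1.5-fold gave 20 lower, then 28 and 88, then 33 and 8, and a limit of 4-fold gave 25 and 2, 3 and 15, and 0 and 2. The count of lower genes for Cas+CO against Sham was 18 without the 50 most abundant genes and 19 with epithelial scaling, and the count of higher genes for Cas+T against Sham was 2 and 1. A minimum of 10 TPM gave 3 higher and 2 lower in Cas+T against Sham. Changed limits and minimums move counts by construction; for the scalings the cause was not tested. No paired analysis was possible because each group has 1 library. Depth is unknown, so counting error is too, which weighs most on Rhox5, Zbtb16, Abcc4 and Steap4, each under 10 TPM in at least 2 libraries.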

Other observations

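Among the 70 other androgen-responsive genes, some ran the same way as Fkbp5. These were chosen after their values were seen. Sat1, which breaks down polyamines, stood at 1083 TPM in Cas+T, 376 TPM in Cas+CO and 819 TPM in Sham. Insig1, a sensor of cholesterol synthesis, stood at 58.3 TPM in Cas+T, 14.5 TPM in Cas+CO and 68.3 TPM in Sham. Slc26a2, a sulfate transporter, stood at 28.3, 6.67 and 16.2 TPM in the same order. Each was lowest in Cas+CO, also after median scaling, with log2 ratios of −1.92, −2.89 and −1.83 in Cas+CO against Sham.

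The 2 genes of that list called lower in Cas+T against Sham were Azgp1 and Slc45a3, a membrane transporter known from prostate. Slc45a3 stood at 0.66 TPM in Cas+T, 2.0 TPM in Cas+CO and 9.40 TPM in Sham. It resembled Abcc4 in being lowest in the castrated library given testosterone. Sms, spermine synthase, was the 1 gene called higher in Cas+T than in Sham, at 10.7 TPM in Cas+T, 14.7 TPM in Cas+CO and 4.65 TPM in Sham. After median scaling its log2 ratio of 1.05 became 0.73, within 2-fold.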
